A study of Homo sapiens with 16 samples.

Results

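UACC62R is a human melanoma cell line that was selected for growth in vemurafenib, an inhibitor of mutant BRAF, and the comparison described here is its response to 6 h of CCG-222740. The 4 libraries were chosen by their labels alone, out of 16 in the series. They comprise 2 libraries of UACC62R after 6 h in 10 uM CCG-222740 and 2 of untreated UACC62R (0 h). The untreated libraries are described as cells kept in 2 uM vemurafenib after 2 months of selection, whereas the description of the treated libraries does not mention vemurafenib. The treated libraries' protocol names a vehicle control, but the 0 h libraries are labelled as having no treatment, so the compound, its vehicle and the handling of the plates cannot be told apart. The 0 h libraries of both lines also carry a differently worded culture description from all treated ones, and any difference in preparation between these sets cannot be told apart from the treatment either. The remaining 12 libraries are UACC62R at 2 and 24 h and the parental line UACC62P at 0, 2, 6 and 24 h, 2 libraries each, and they are used here for the spread, for the time course and for the comparison of the lines. No label says whether the 2 libraries of a group came from separate cultures. Every p-value here therefore sets a difference between groups against the spread among these libraries, which could be technical.

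The 4 libraries held 28.95 to 31.03 M reads in genes, within the range of 25.93 to 33.34 M over all 16. Reads that did not align were 9.76% and 9.33% in 6 h libraries, against 13.5% and 15.4% in 0 h libraries. Reads with more than 1 place in the genome were 20.3% and 20.6%, against 19.1% and 18.6%, and the part of these shares in the results was not tested. Melanocyte genes were low in UACC62R, while its markers of the dedifferentiated melanoma state were mixed beside UACC62P. In counts per 1 M reads (CPM) scaled over 16 libraries, the receptor kinase AXL had 263 and 279 after treatment, against 232 and 266 in untreated cells. UACC62P averaged 4.76 CPM of AXL at 6 h. At 6 h SOX9 (169 and 130 CPM, UACC62P mean 1.76) and S100A6 (742 and 558, mean 454) were also above UACC62P. NES (40.1 and 36.4 CPM, UACC62P mean 241) and VIM (2360 and 2290, mean 3080) were below it. The melanocyte factor SOX10 had 24 and 19.9 CPM in 6 h libraries, against 26.4 and 26.2 CPM in 0 h libraries, where UACC62P averaged 855 CPM. TYR, MLANA and PMEL, the pigment genes, were each under 1 CPM in all 4 libraries. The library labelled UACC62P 2 h replicate 1 had 18.1 CPM of SOX10, close to UACC62R and far from UACC62P, and it was left out of the fit, with the counts of the fit that keeps it given beside each comparison. Of 16 markers of epithelial, endothelial and blood cells, 6 and 6 had no read in the 6 h libraries and 8 and 10 had none in the 0 h libraries. The 16 markers summed to 2.79 and 2.78 CPM after treatment, against 2.93 and 2.57 CPM before it. CDH1, PECAM1, CD3E and HBB had no read in any of the 4 libraries.

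CCG-222740 is known as an inhibitor of transcription driven by MRTFA and MRTFB, coactivators that move into the nucleus when actin polymerizes and bind the factor SRF at genes of the cytoskeleton. Several other programs of the cell answer to stress within hours. Metallothioneins are small proteins that bind zinc and other metals, and the zinc sensor MTF1 switches on their genes and that of the exporter SLC30A1 through metal response elements. HSF1 switches on the cytosolic chaperones through heat shock elements, and a separate set of sensors adjusts chaperones of the endoplasmic reticulum (ER).

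The promoters of MT1X, MT2A and SLC30A1 are shown because these zinc-responsive genes were among the largest responders, and that of HSPA8 because it holds 2 heat shock elements. Each run covers the 250 bases upstream of the transcription start, 5′ to 3′ on the gene's strand, from RefSeq (GRCh38.p14). Capitals mark the metal response core (TGCACNC or TGCGCNC, either strand) in the metallothioneins and SLC30A1, and the heat shock element in HSPA8, taken strictly as 3 alternating GAA and TTC units with any 2 bases (NN) between neighbours.
MT1X, chr16:56682220-56682469, plus strand: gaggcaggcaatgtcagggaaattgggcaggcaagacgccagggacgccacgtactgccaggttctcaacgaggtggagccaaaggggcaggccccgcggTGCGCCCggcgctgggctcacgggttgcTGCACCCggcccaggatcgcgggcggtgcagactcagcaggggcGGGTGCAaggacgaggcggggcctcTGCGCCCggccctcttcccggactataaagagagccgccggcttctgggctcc
MT2A, chr16:56608334-56608583, plus strand: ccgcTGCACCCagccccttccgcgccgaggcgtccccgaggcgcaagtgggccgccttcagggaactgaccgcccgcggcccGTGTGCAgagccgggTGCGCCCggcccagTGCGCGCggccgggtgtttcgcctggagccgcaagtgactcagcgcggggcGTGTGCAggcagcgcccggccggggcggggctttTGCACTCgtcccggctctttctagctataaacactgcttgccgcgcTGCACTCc
SLC30A1, chr1:211579162-211579411, minus strand: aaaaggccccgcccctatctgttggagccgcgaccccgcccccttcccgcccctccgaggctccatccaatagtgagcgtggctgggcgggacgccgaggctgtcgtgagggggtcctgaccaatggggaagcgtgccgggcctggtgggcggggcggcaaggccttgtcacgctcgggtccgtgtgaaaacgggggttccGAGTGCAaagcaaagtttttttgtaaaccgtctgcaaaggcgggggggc
HSPA8, chr11:123062137-123062386, minus strand: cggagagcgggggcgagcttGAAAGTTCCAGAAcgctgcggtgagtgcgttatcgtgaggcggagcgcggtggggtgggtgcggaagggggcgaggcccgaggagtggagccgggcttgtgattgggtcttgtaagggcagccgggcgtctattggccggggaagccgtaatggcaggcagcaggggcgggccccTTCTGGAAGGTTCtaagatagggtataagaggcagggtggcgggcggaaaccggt
The metal response core occurred 7 times upstream of MT2A, 4 times upstream of MT1X and once upstream of SLC30A1, 49 bases before the start. In MT1X the matches began 150, 122, 78 and 53 bases before the start. The heat shock elements of HSPA8 began 230 and 55 bases before its start. A match of letters is a description and does not show that a factor binds there.

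After 6 h in CCG-222740, 77 genes were higher and 58 lower than in untreated UACC62R, out of 20280 genes tested, which is 0.38% and 0.286%. The test was edgeR's quasi-likelihood F test with Benjamini-Hochberg adjustment at 0.05, fitted on 15 libraries with 1 coefficient per group and 7 residual degrees of freedom. All 135 genes had levels that did not overlap between the 6 h and 0 h libraries, which was also true of 18.9% of all genes in the higher direction and 18.5% in the lower. Changes were mostly below 2-fold, with 29 of the 77 higher genes and 12 of the 58 lower genes past that size. Past 4-fold there were 9 higher genes and no lower gene, and the median log2 fold change was 0.71 among higher and -0.70 among lower genes. Protein-coding genes made up 70 of the 77 and all 58 of the lower ones, and 5 of the higher ones are pseudogenes. The same libraries fitted with the replicate number as a block gave 352 higher and 214 lower genes, 1.74% and 1.06%, including all 77 and all 58. These shares, with and without the block, are the background for the counts of called list members given below for this comparison. DESeq2, an alternative test, called 173 genes higher and 120 lower of the 13203 given an adjusted p. Those counts are the background for the list members called by DESeq2. In a fit that also held the library labelled UACC62P 2 h replicate 1, the counts were 3 (MT1X, MT1G and the pseudogene MT1P3) and 2 (SGSH and MOGS). Without any 1 of the 4 libraries, the fit called 31 to 37 genes higher and 25 to 35 lower.

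**Figure D1:**
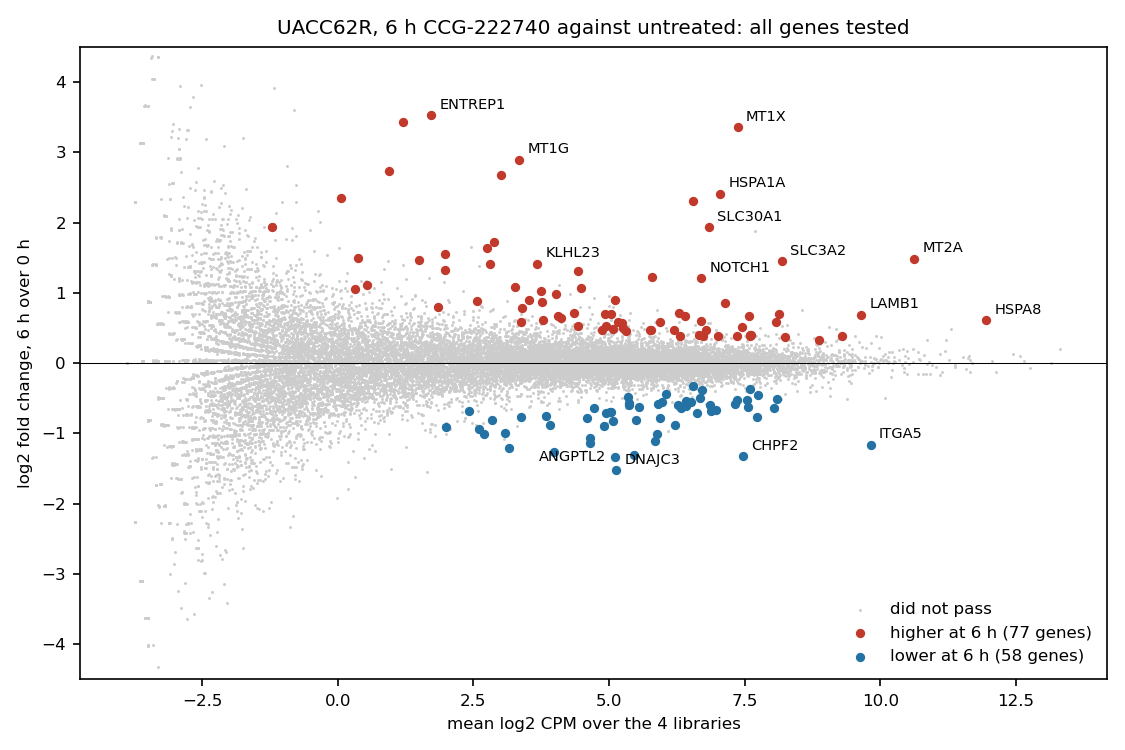
Log2 fold change of UACC62R at 6 h over 0 h (vertical) against the mean log2 CPM over the 4 libraries (horizontal), 1 point per gene tested. Genes called higher (77) are red and genes called lower (58) blue, and 28 uncalled genes of low level lie beyond the vertical axis. Higher genes reach 3.53 and lower genes -1.52.

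Genes that handle zinc were among the largest responders. MT1X (ENSG00000187193) had 558 and 506 CPM at 6 h, against 55.6 and 47.8 CPM at 0 h. These CPM are scaled by TMM and are not divided by gene length. The groups were far apart, with a log2 fold change of 3.36 ± 0.18 (SE, 2 libraries a group, adjusted p = 8.07e-07), or 10.3-fold. MT1G had 34.4 and 21.1 CPM at 6 h, against 3.99 and 3.48 CPM at 0 h, with no overlap, and rose by 2.90 ± 0.23 (adjusted p = 1.97e-05). MT2A (ENSG00000125148), already abundant in untreated cells, had 2631 and 2677 CPM at 6 h, against 954.3 and 942.2 CPM at 0 h. Its libraries agreed closely within each group, and it rose 2.80-fold (log2 fold change 1.48 ± 0.10, adjusted p = 4.13e-06). These are the 3 metallothioneins tested of 11 in the family list, and all 3 rose. The other 8 had between 0 and 6 reads over the 4 libraries. The copies are near-identical in sequence and the counting kept only reads with a single place in the genome, so reads could be lost or split between them. The metallothionein pseudogenes MT1P3, MT1XP1 and MT2P1 were called higher as well, with log2 fold changes of 3.43, 2.74 and 1.22, and whether their reads came from the parent genes was not tested.

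SLC30A1 (ENSG00000170385), which exports zinc across the plasma membrane, had 199.6 and 253 CPM at 6 h, against 52 and 66.2 CPM at 0 h. It rose 3.82-fold (log2 1.94 ± 0.17, adjusted p = 3.97e-05) and was the 1 member called of the 11 exporters and MTF1 (median log2 fold change 0.20 over the 11, against -0.00166 over all genes). MTF1 itself had 37 and 40.9 CPM at 6 h, against 41.3 and 41 CPM at 0 h (log2 fold change -0.08 ± 0.09, adjusted p = 0.881). One 6 h library of the sensor lay just below the 0 h libraries and the other almost level with them. SLC39A10, a plasma membrane importer of zinc, went the other way, with 23 and 33.6 CPM at 6 h, against 63.6 and 77.3 CPM at 0 h. It fell by 1.32 ± 0.15 on the log2 scale (adjusted p = 0.000727) and was the 1 member called of the 11 importers tested, the other 10 lying between -0.17 and 0.08. Zinc exporter SLC30A6, at 0.29 ± 0.10, passed with the replicate block alone (adjusted p = 0.0435, against 0.382 without it).

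**Figure D2:**
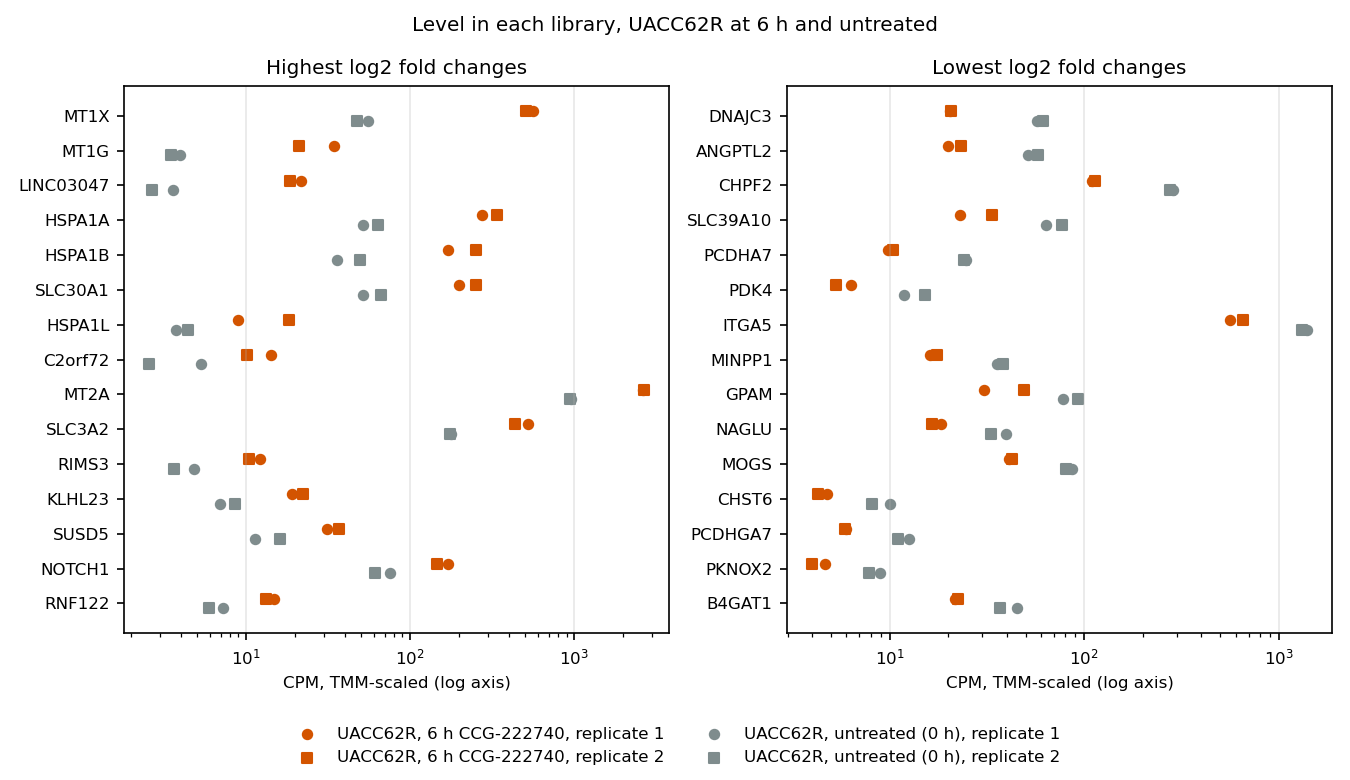
CPM, scaled by TMM, on a log axis in each of the 4 libraries. Shown are the 15 genes with the largest positive (left) and negative (right) log2 fold changes. They were chosen among called genes whose mean log2 CPM reached 2 and whose groups did not overlap. Orange marks 6 h and grey 0 h, circles replicate 1 and squares replicate 2. By that choice the orange points lie on 1 side of the grey ones in every row. The rows run from MT1X at 558 and 506 against 55.6 and 47.8 CPM to B4GAT1 at 21.6 and 22.5 against 45.4 and 36.9 CPM.

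Of 23 cytosolic and mitochondrial chaperones tested, 5 were called higher and none lower, against 0.38% and 0.286% of all genes. HSPA1A (ENSG00000204389), the inducible HSP70, had 274 and 338 CPM at 6 h, against 51.5 and 63.4 CPM at 0 h, and its neighbouring near-identical copy HSPA1B had 171 and 252 CPM, against 35.8 and 49.8 CPM. Both sets of libraries were apart, with log2 fold changes of 2.41 ± 0.32 (adjusted p = 0.0019) and 2.31 ± 0.37 (adjusted p = 0.0086), although reads could be exchanged between the copies and HSPA1L, the adjacent gene that also rose (1.73 ± 0.36, adjusted p = 0.0424). The constitutive HSPA8 had 4537 and 5313 CPM at 6 h, against 2874 and 3553 CPM at 0 h, and replicate 2 was the higher library in both groups (log2 fold change 0.62 ± 0.12, adjusted p = 0.0302). FKBP4, a co-chaperone of HSP90 for steroid receptors, had 358 and 362 CPM, against 213 and 230 CPM, and rose by 0.70 ± 0.07 (adjusted p = 0.000262). BAG3, which couples HSP70 to autophagy, had 232 and 248 CPM, against 152 and 152 CPM (0.66 ± 0.12, adjusted p = 0.0236). Its partner HSPB8, outside the list and chosen after its values were seen, was called too (0.39 ± 0.08, adjusted p = 0.0496).

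The chaperone list as a whole lay mostly above 0, with 22 of 23 members positive and a median log2 fold change of 0.48, against -0.00166 over all 20280 genes. With the replicate block, 19 of the 23 were called higher, against 1.74% of all genes. Among them were HSPH1 (0.75 ± 0.18, adjusted p = 0.0985 without the block and 7.1e-05 with it) and HSP90AA1 (0.49 ± 0.15, adjusted p = 0.254 without the block and 0.000113 with it). HSF1, the transcription factor of the response, had 145.1 and 143.6 CPM at 6 h, against 149.2 and 147.4 CPM at 0 h (-0.04 ± 0.07, adjusted p = 0.943). Without 6 h replicate 2, or without either 0 h library, the calls for HSPA1B and HSPA1L were lost (adjusted p up to 0.129 and 0.397). That for BAG3 was lost without any 1 of the 4 (adjusted p up to 0.192).

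Of 23 ER chaperones and quality control genes, 2 were called lower and none higher. DNAJC3 (ENSG00000102580), an ER co-chaperone known as P58IPK, had 20.4 and 20.8 CPM at 6 h, against 57 and 61.2 CPM at 0 h. The 6 h libraries were level with each other and 2.88-fold below the untreated ones, the largest decrease among called genes (log2 fold change -1.52 ± 0.12, adjusted p = 1.97e-05). MANF, a secreted ER stress factor, had 68.8 and 72.9 CPM, against 108 and 97.6 CPM (-0.54 ± 0.10, adjusted p = 0.0192). HSPA5 and HSP90B1, the major ER chaperones, were at -0.09 ± 0.07 and 0.04 ± 0.08 (adjusted p = 0.803 and 0.953). DNAJB9, a co-chaperone of HSPA5, had 43.6 and 45.5 CPM, against 22.8 and 23.1 CPM, yet the spread over the 15 libraries left it at an adjusted p of 0.0788 (0.0029 with the block). With the block, 1 of the 23 was higher and 4 lower. Their median was -0.03, and none of the 8 RNAs on the list reported to be cleaved by the ER nuclease IRE1 was called, with or without the block or by DESeq2, and 2 of the 8 had an unadjusted p under 0.05.

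Other genes of the secretory pathway, most of them outside the lists and grouped by function after their values were seen, were called in both directions. Lower genes included 3 of the thioredoxin or disulfide isomerase kind, PDIA5 (-0.48 ± 0.10), TXNDC11 (-0.56 ± 0.08) and TXNDC15 (-0.56 ± 0.11), with the thiol oxidase ERO1B (-0.76 ± 0.15). ERLIN2 and FOXRED2, which act in ER-associated degradation, fell by 0.68 ± 0.09 and 0.62 ± 0.08 on the log2 scale. TMED9 and LMAN1, which carry cargo between the ER and Golgi, were lower too, with TMED9 at 203 and 257 CPM at 6 h, against 321 and 337 CPM at 0 h. LMAN1 had 185 and 239 CPM at 6 h, against 311 and 352 CPM at 0 h (-0.64 ± 0.12, adjusted p = 0.0226). It was the 1 gene called of 23 coat proteins and cargo receptors, where the block called 1 higher and 1 lower.

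Higher genes at the ER included some of protein entry and collagen handling. TRAM1 and SSR1, partners of the translocon, rose by 0.40 ± 0.08 and 0.37 ± 0.07. MIA3, also called TANGO1, which loads collagen at ER exit sites, had 94.3 and 107 CPM at 6 h, against 58.9 and 63.5 CPM at 0 h (0.72 ± 0.09, adjusted p = 0.0014). P4HA1 and P4HA2, the catalytic subunits of collagen prolyl hydroxylase, rose by 0.40 ± 0.07 (adjusted p = 0.0108) and 0.59 ± 0.10 (adjusted p = 0.014), and the collagen chaperone SERPINH1 rose by 0.39 ± 0.07 (adjusted p = 0.0257). The laminin chain LAMB1 was the 1 gene called of 26 in the extracellular matrix list, with 1024 and 1019 CPM at 6 h, against 638 and 628 CPM at 0 h (0.69 ± 0.09, adjusted p = 0.00157).

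Several enzymes that build or break sugar chains were called, with ALG2 higher and the others named here lower. MOGS, the glucosidase that begins trimming of N-glycans, had 41.1 and 42.6 CPM at 6 h, against 87.1 and 80.9 CPM at 0 h. It fell by 1.00 ± 0.09 (adjusted p = 3.97e-05), while ALG2, a mannosyltransferase of the lipid-linked precursor, rose by 0.58 ± 0.11 (adjusted p = 0.0239). They were the members called of 26 in N-glycan assembly and trimming (median 0.13), against 3 higher and 2 lower with the block. CHPF2, a chondroitin glucuronyltransferase, had 110.1 and 114 CPM at 6 h, against 286 and 275 CPM at 0 h. The fall of 1.32 ± 0.09 (adjusted p = 4.13e-06) was joined by CHST14, the dermatan sulfotransferase (-0.83 ± 0.11, adjusted p = 0.0019), making 2 of 28 glycosaminoglycan synthesis genes lower and none higher (5 and none with the block). B4GAT1, which primes the matriglycan of dystroglycan, and CHST6, a sulfotransferase of keratan sulfate, lay outside the list and fell by 0.90 ± 0.12 (adjusted p = 0.0019) and 1.00 ± 0.15 (adjusted p = 0.00367).

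Of the lysosomal enzymes, 2 that break down heparan sulfate were lower. NAGLU, the lysosomal glucosaminidase, had 18.4 and 16.4 CPM at 6 h, against 39.6 and 33.3 CPM at 0 h (-1.06 ± 0.15, adjusted p = 0.00264). SGSH, the sulfamidase, had 35 and 32.8 CPM, against 62.1 and 57.3 CPM (-0.81 ± 0.09, adjusted p = 0.000687). No other of the 32 lysosomal genes was called, and the list's median was 0.05. MINPP1, an ER phosphatase of inositol phosphates, had 16.1 and 17.5 CPM at 6 h, against 35.8 and 38.4 CPM at 0 h, and fell by 1.14 ± 0.11 (adjusted p = 0.000155).

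At the cell surface, SLC3A2, the heavy chain of several amino acid transporters, had 523 and 439 CPM at 6 h, against 178 and 175 CPM at 0 h (log2 fold change 1.45 ± 0.15, adjusted p = 0.000219). No other gene of the 20 on the ATF4 and amino acid response list was called, and ATF3 and DDIT3 were at -0.04 ± 0.26 and -0.11 ± 0.13. The block called 2 of the 20 higher. NOTCH1, a receptor for ligands of neighbouring cells, had 170 and 146 CPM, against 75.7 and 61.1 CPM, and rose by 1.21 ± 0.15 (adjusted p = 0.00136). ITGA5, the alpha subunit of the fibronectin receptor, had 563 and 652 CPM at 6 h, against 1402 and 1314 CPM at 0 h. It fell 2.24-fold (-1.16 ± 0.14, adjusted p = 0.0011), and JAM3, a junctional adhesion molecule, fell by 0.59 ± 0.08 (adjusted p = 0.0014). Of 49 clustered protocadherins tested, which share exons within a cluster, PCDHA7 (-1.27 ± 0.17, adjusted p = 0.00231) and PCDHGA7 (-0.99 ± 0.18, adjusted p = 0.023) were lower and none was higher. With the block, 4 were lower and none higher.

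Several genes of secreted proteins were called, in both directions. ANGPTL2, an angiopoietin-like factor, had 20 and 23.4 CPM at 6 h, against 51.5 and 57.9 CPM at 0 h (-1.33 ± 0.12, adjusted p = 3.97e-05). It was the 1 gene called of 14 angiogenic factors, whose median was -0.14, and with the block 3 were lower. Chosen after their values were seen, the matrix protein EFEMP1 (-0.89 ± 0.11), the metalloprotease ADAMTS12 (-0.76 ± 0.10), the protease PAPPA of insulin-like growth factor binding proteins (-0.71 ± 0.14), osteoprotegerin TNFRSF11B (-0.66 ± 0.12) and the matricellular CCN3 (-0.62 ± 0.11) were lower as well. CLU, the extracellular chaperone clusterin, was higher (0.51 ± 0.09, adjusted p = 0.0158).

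Regulators of metabolism and transcription followed. EGLN1, the oxygen-sensing hydroxylase, had 203 and 174 CPM at 6 h, against 115 and 94.6 CPM at 0 h (0.85 ± 0.15, adjusted p = 0.0205). With P4HA1 it made 2 of 25 glycolysis and hypoxia genes higher and none lower, 6 and 0 with the block, at a median of 0.20. PDK4, the kinase that restrains pyruvate dehydrogenase, had 6.34 and 5.31 CPM, against 11.9 and 15.1 CPM (-1.21 ± 0.21, adjusted p = 0.0152), and the transcription factor KLF9 fell by 0.79 ± 0.14 (adjusted p = 0.0192). They were the 2 called of 13 genes linked to FOXO or MondoA, whose median was 0.17, and with the block 1 was higher and 2 lower. GPAM, the acyltransferase that starts triglyceride synthesis in mitochondria, had 30.6 and 49 CPM, against 77.8 and 93.4 CPM (-1.10 ± 0.21, adjusted p = 0.0236). PKNOX2, a homeobox factor, fell by 0.94 ± 0.15 (adjusted p = 0.00961), and the vitamin D receptor VDR fell by 0.52 ± 0.09 (adjusted p = 0.0123).

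Some strong responders belong to no list. ENTREP1 had the largest log2 fold change among called genes, with 10.7 and 10.9 CPM at 6 h, against 0.989 and 0.876 CPM at 0 h (3.53 ± 0.28, adjusted p = 1.97e-05). Its mean level was below the minimum of the rule for named genes, and it was picked after its values were seen. By the rule, KLHL23 had 19.2 and 22.3 CPM, against 6.99 and 8.55 CPM (1.42 ± 0.14, adjusted p = 0.000199), although its locus overlaps a readthrough gene. SUSD5 rose by 1.31 ± 0.18 (adjusted p = 0.0019), the synaptic protein gene RIMS3 by 1.42 ± 0.27 (adjusted p = 0.0283), the ubiquitin ligase RNF122 by 1.08 ± 0.20 (adjusted p = 0.0206), C2orf72 by 1.63 ± 0.32 (adjusted p = 0.0283) and the noncoding LINC03047 by 2.68 ± 0.27 (adjusted p = 0.000199). Calls for RIMS3, RNF122, C2orf72, EGLN1, PDK4, KLF9, GPAM, PKNOX2, PCDHGA7, CHST6, ALG2, P4HA1, MANF and LMAN1 were lost in at least 1 fit without a library, at adjusted p of up to 0.304. For RIMS3, RNF122, KLF9, PCDHGA7 and ALG2 this held whichever of the 4 libraries was left out.

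MRTF/SRF targets are the genes that CCG-222740 is known to act on. Of the 21 cytoskeletal targets on the list that were tested, none was called higher or lower, with or without the replicate block. Their median log2 fold change was -0.09, against -0.00166 over all genes. It was positive for 6 of the 21, against 9984 of all 20280 genes. Groups did not overlap for 1 target in the higher direction and 6 in the lower, against 18.9% and 18.5% of all genes. At an unadjusted p under 0.05 there were 2 of the 21, where the share over all 20280 genes was 9.09%. DESeq2 called 0 of the 17 to which it gave an adjusted p. CCN1 and CCN2, which answer to SRF as well as YAP, are on the YAP/TEAD list below. ACTA2, smooth muscle actin, had 21.9 and 19.8 CPM at 6 h, against 21.9 and 20.8 CPM at 0 h (-0.04 ± 0.11, adjusted p = 0.97). TAGLN, transgelin, had 4.9 and 7.82 CPM, against 6.23 and 9.77 CPM, and replicate 2 was the higher library in both groups (-0.33 ± 0.31, adjusted p = 0.842). ANKRD1 was at 1.02 and 0.575 CPM, against 0.659 and 1 CPM (-0.05 ± 0.60). The standard errors of TAGLN and ANKRD1 are wide beside the median change of 0.71 among higher genes. The factors themselves were MRTFA at -0.25 ± 0.09 (adjusted p = 0.386), MRTFB at -0.19 ± 0.15 (adjusted p = 0.807) and SRF at -0.21 ± 0.09 (adjusted p = 0.494). All 3 had both 6 h libraries below both 0 h libraries without passing the test, and 18.5% of all genes did not overlap in this direction.

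Related programs held few called genes or none. None of 20 YAP/TEAD targets passed without the block and 1 was lower with it, with CCN1 at -0.45 ± 0.12 (adjusted p = 0.155, and 0.0237 with the block) and CCN2 at 0.21 ± 0.12 (adjusted p = 0.663). At an unadjusted p under 0.05 there were 3 of the 20, and DESeq2 called 1 of 18 lower. The 9.09% of all genes is the background for this and the following unadjusted counts. Without the block, none of 22 immediate early genes passed, nor any of 16 genes of MAPK output, 20 interferon-stimulated genes, 19 NF-kB targets, 21 TGF-beta and activin genes, 26 of DNA replication and 25 of mitosis. In that order, 5, 4, 1, 2, 4, 0 and 1 of them had an unadjusted p under 0.05, and DESeq2 called 1 gene lower among the immediate early, MAPK, TGF-beta and mitosis genes each. In the other 3 lists it called none of the 17 interferon, 12 NF-kB and 26 replication genes given an adjusted p. The block called 2 higher and 1 lower of the immediate early genes, 2 higher and 1 lower of the MAPK genes, 1 lower of the TGF-beta genes, 1 lower of the mitosis genes and none of the others. Among 22 NRF2 targets none passed without the block, by edgeR or by DESeq2 (20 with an adjusted p). The block called 3 higher, and 6 had an unadjusted p under 0.05. HMOX1, heme oxygenase, had 389.9 and 405.1 CPM at 6 h, against 114.6 and 101.7 CPM at 0 h. The 6 h libraries of HMOX1 were more than 3 times the 0 h ones, but its spread in the 15-library fit was wide (1.88 ± 0.51, adjusted p = 0.157, and 0.0224 with the block). That fit also holds the 6 h libraries of UACC62P, at 128.3 and 761.1 CPM, and their part in the spread was not tested. One of 20 p53 targets was higher, the death receptor TNFRSF10B, with 522 and 522 CPM, against 409 and 426 CPM (0.32 ± 0.06, adjusted p = 0.0283), and the block called 2. The call for TNFRSF10B was lost without any 1 of the 4 libraries (adjusted p up to 0.201).

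Without the block, no gene was called among 27 of cholesterol and fatty acid synthesis, 16 of the circadian clock, 15 of autophagy and ubiquitin stress, 20 aminoacyl-tRNA synthetases, 25 proteasome subunits, 25 of ribosome biogenesis and 18 of complex I. At an unadjusted p under 0.05 these lists held, in that order, 1, 3, 2, 2, 1, 2 and 0 genes, and DESeq2 called 1 clock gene higher and none elsewhere among genes given an adjusted p. The block called 1 cholesterol, 1 clock, 2 autophagy and 1 aminoacyl-tRNA synthetase gene higher and 1 proteasome gene lower. Identity genes gave no call without the block either, with none among 16 for melanocyte differentiation or 20 for the dedifferentiated or invasive state, where EGFR, at 0.54 ± 0.12, had an adjusted p of 0.0543. AXL was at 0.12 ± 0.12, MITF at 0.03 ± 0.11 and SOX10 at -0.26 ± 0.11. The unadjusted count was 2 of 16 and 3 of 20, DESeq2 called none of 13 and 1 of 19 higher, and the block called 1 melanocyte gene lower and EGFR higher. None of the 7 tested markers of other cell types passed with or without the block, and none had an unadjusted p under 0.05. DESeq2 gave an adjusted p to 1 of the 7 and did not call it.

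**Figure D3:**
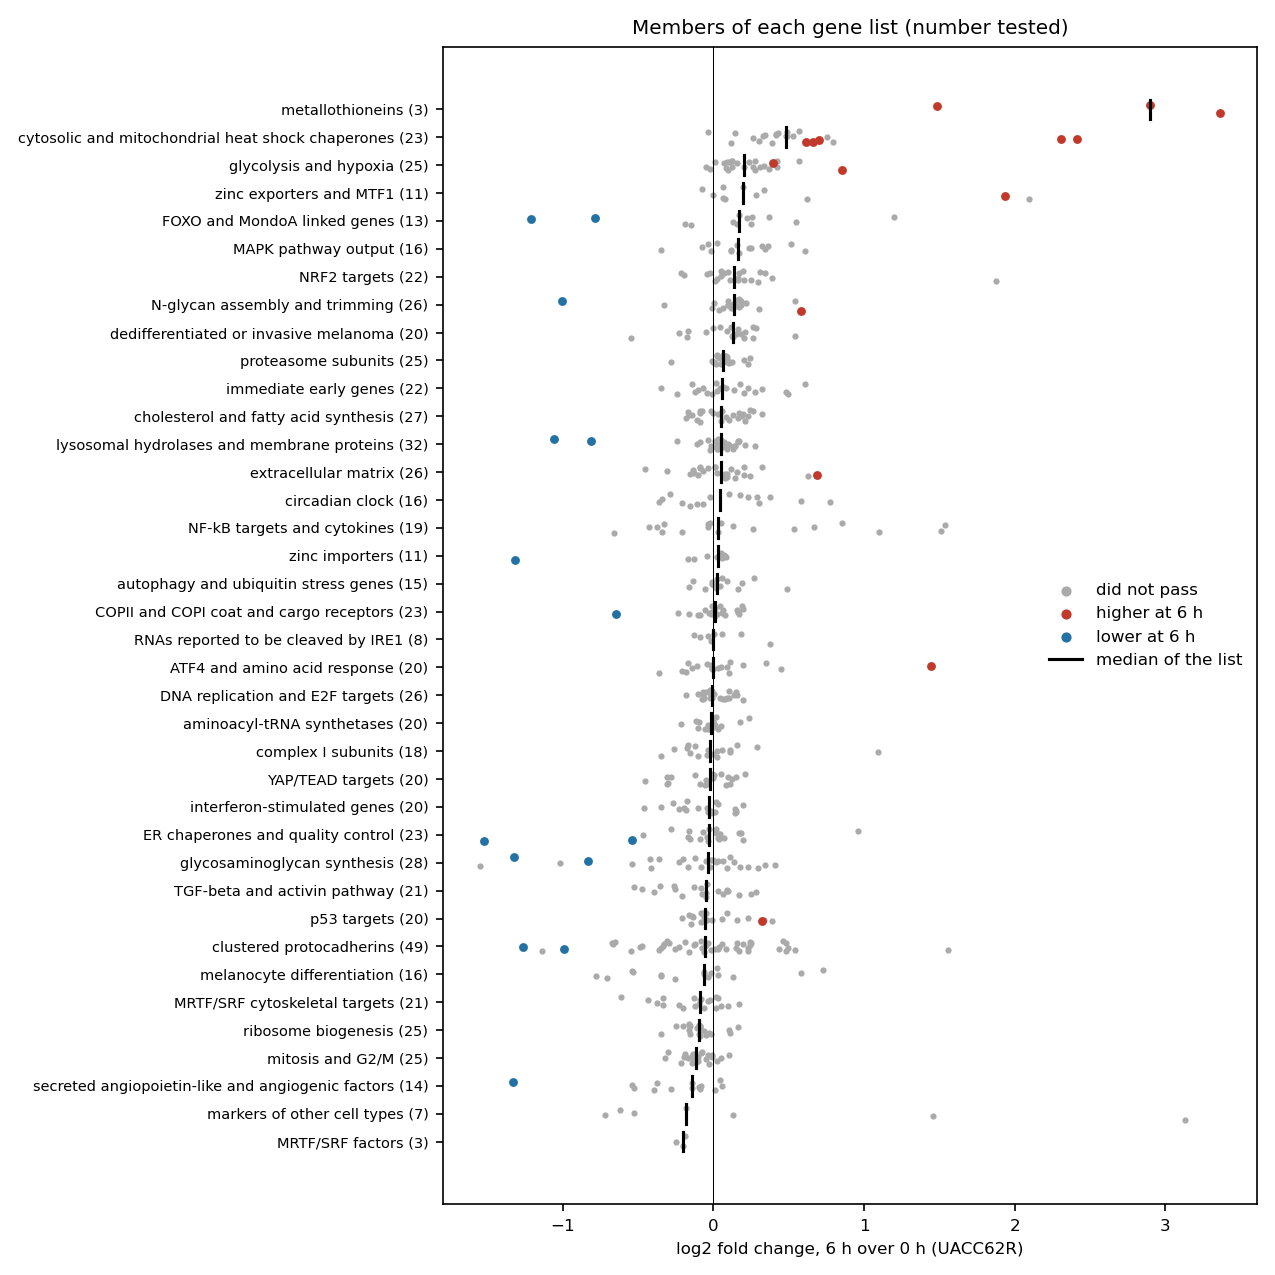
Log2 fold change of UACC62R at 6 h over 0 h for each tested member of the 38 gene lists, with the number tested in parentheses and lists ordered by median (black bar). Red and blue points were called higher and lower. Metallothioneins (median 2.90) and heat shock chaperones (0.48) stand at the top, and the MRTF/SRF targets (-0.09) hold no called gene.

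The comparisons of times use the 6 h libraries as well, so they share samples with the comparison above, and each gene's values are given side by side. UACC62R at 6 h against 2 h gave no gene higher and 2 lower, 0% and 0.00986% of 20280, with 1358 genes at an unadjusted p under 0.05. The replicate block gave 77 higher and 71 lower (0.38% and 0.35%), DESeq2 gave 31 and 30, and the fit of 16 libraries gave none. The 2 genes were CHPF2 (6 h over 2 h -0.74 ± 0.09, adjusted p = 0.014) and ANGPTL2 (-0.86 ± 0.12, adjusted p = 0.036). Both calls were lost without any 1 of the 4 libraries, at adjusted p of up to 0.389 and 0.45. UACC62R at 24 h against 6 h gave 1051 higher and 1499 lower, 5.18% and 7.39%, and with the replicate block 2016 and 2475 (9.94% and 12.2%). The counts were 664 and 1049 without 6 h replicate 1, 363 and 601 without 6 h replicate 2, 451 and 782 without 24 h replicate 1, 900 and 1385 without 24 h replicate 2, and 62 and 96 in the fit of 16 libraries. Among the genes given below, that last fit kept the calls at 24 h against 6 h for HSPA1A, CYP1A1 and PDK4.

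MT1X had 55.6 and 47.8 CPM untreated, 315 and 275 CPM after 2 h, 558 and 506 CPM after 6 h, and 207 and 160.5 CPM after 24 h. The highest level was at 6 h, although 6 h over 2 h did not pass (0.85 ± 0.17, adjusted p = 0.128, and 0.0063 with the block). The level at 24 h lay below that at 6 h (24 h over 6 h -1.53 ± 0.17, adjusted p = 9.6e-05). SLC30A1 had 52 and 66.2 CPM untreated, 229 and 236 CPM after 2 h, 199.6 and 253 CPM after 6 h, and 109 and 116 CPM after 24 h. The 6 h libraries of the exporter lay on both sides of the 2 h ones (6 h over 2 h -0.04 ± 0.16, adjusted p = 0.99), and 24 h was lower (-1.01 ± 0.16, adjusted p = 0.0014). HSPA1A had 51.5 and 63.4 CPM untreated, 169 and 242 CPM after 2 h, 274 and 338 CPM after 6 h, and 57.9 and 82.4 CPM after 24 h. At 24 h, 1 of the libraries was back within the 0 h range (24 h over 6 h -2.12 ± 0.32, adjusted p = 0.00084). For HSPA1A, 6 h over 2 h did not pass (0.57 ± 0.31, adjusted p = 0.799, and 0.15 with the block). Nor did it for MT2A (0.57 ± 0.10, adjusted p = 0.088), which passed with the block (0.0026). MT2A was lower at 24 h than at 6 h by less (-0.41 ± 0.10, adjusted p = 0.015), and that call was lost without either 6 h library or without 24 h replicate 2 (adjusted p up to 0.0893).

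Other genes moved on after 6 h. SLC3A2 had 178 and 175 CPM untreated, 323 and 307 CPM after 2 h, 523 and 439 CPM after 6 h, and 608 and 657 CPM after 24 h, and its last step did not pass (24 h over 6 h 0.40 ± 0.15, adjusted p = 0.098). LAMB1 was higher again at 24 h than at 6 h (0.65 ± 0.09, adjusted p = 0.00045), as was P4HA1 (0.53 ± 0.07, adjusted p = 0.00024). ITGA5 had 1402 and 1314 CPM untreated, 1066 and 1162 CPM after 2 h, 563 and 652 CPM after 6 h, and 408 and 357 CPM after 24 h. Both of its libraries at each time lay below both of the time before (24 h over 6 h -0.67 ± 0.14, adjusted p = 0.0074, and 0.0789 without 6 h replicate 2). DNAJC3 had 57 and 61.2 CPM untreated, 25.8 and 25.6 CPM after 2 h, 20.4 and 20.8 CPM after 6 h, and 30.4 and 35.2 CPM after 24 h, low by 2 h and higher again at 24 h (24 h over 6 h 0.68 ± 0.12, adjusted p = 0.0026). PDK4 had 11.9 and 15.1 CPM untreated, 5.96 and 7.24 CPM after 2 h, 6.34 and 5.31 CPM after 6 h, and 27.3 and 22.1 CPM after 24 h, where it stood above the untreated level (24 h over 6 h 2.08 ± 0.21, adjusted p = 4.5e-05).

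**Figure D4:**
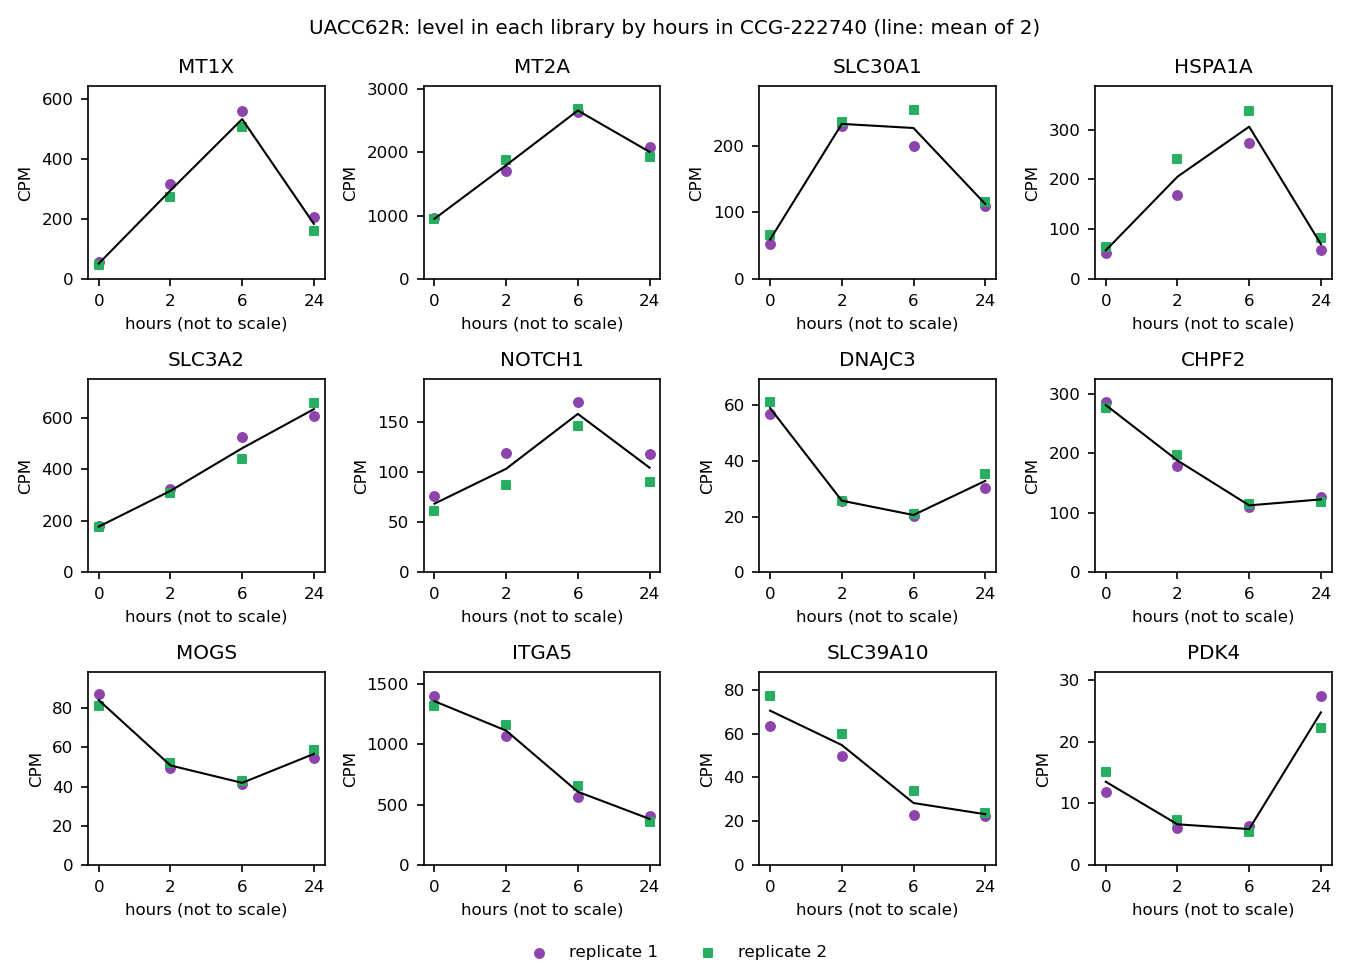
CPM (vertical, from 0) of 12 genes in each UACC62R library at 0, 2, 6 and 24 h of CCG-222740 (horizontal, evenly spaced and not to scale), with a line through the means of 2. MT1X, MT2A and HSPA1A have their highest means at 6 h, although their change from 2 h to 6 h did not pass the test without the block. ITGA5 and SLC39A10 are lowest at 24 h, and PDK4 is low at 2 and 6 h and highest at 24 h.

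CCN1 and CCN2, of the YAP/TEAD list, were lower at 24 h than at 6 h. The SRF targets ACTA2 (24 h over 6 h -0.04 ± 0.11, adjusted p = 0.869) and TAGLN (0.13 ± 0.31, adjusted p = 0.839) were not called in that comparison. These 2 do not stand for their list. Over the 21 MRTF/SRF targets tested, the median log2 fold change at 24 h over 0 h was -0.477, against 0.00554 over all genes. SRF itself was at -0.48 ± 0.09 at 24 h over 0 h (adjusted p = 0.0025). CCN2, a YAP and SRF target, had 110.5 and 101 CPM untreated, 147 and 117 CPM after 2 h, 111 and 133 CPM after 6 h, and 30.4 and 35.2 CPM after 24 h. The last pair equals that of DNAJC3 because both genes had 937 and 1210 reads in the 24 h libraries. The 24 h libraries stood well below the earlier ones (24 h over 6 h -1.89, adjusted p = 3.8e-06). CCN1 was at -1.71 in the same comparison (adjusted p = 5e-06). By the rule for named genes, PTGS2, the inducible cyclooxygenase (1.76, adjusted p = 2.2e-06), was higher at 24 h than at 6 h. So were CYP1A1, a target of the aryl hydrocarbon receptor (1.90, adjusted p = 1.9e-05), SNED1 (1.81, adjusted p = 0.0046) and JUP (1.55, adjusted p = 0.013). The keratin KRT80 (-2.22, adjusted p = 9.6e-07), ESM1 (-3.10, adjusted p = 0.016), KRTAP2-3 (-3.15, adjusted p = 1.9e-05) and KLHL23 (-2.09, adjusted p = 4.4e-06) were lower. ANKRD1, from the genes always given, was lower too (-2.50, adjusted p = 0.038). Without 6 h replicate 2 or without 24 h replicate 1, the calls for SNED1, JUP and ESM1 were lost (adjusted p up to 0.0632, 0.139 and 0.11). That for ANKRD1 was lost without any 1 of the 4 libraries (adjusted p up to 0.188).

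UACC62P was given the same dose and time. Its 4 libraries at 6 h and 0 h are other libraries than those of UACC62R, but same-numbered libraries of the lines deviated together (r = 0.414 between the 0 h groups and 0.277 between the 6 h groups), so agreement between the lines is not independent support. UACC62P had 172 higher genes and 136 lower, 0.848% and 0.671% of 20280. The replicate block gave 739 and 676 (3.64% and 3.33%) and the fit of 16 libraries 7 and 3. Leaving out a library gave 110 and 95 without 6 h replicate 1, 38 and 21 without 6 h replicate 2, 76 and 34 without 0 h replicate 1, and 36 and 54 without 0 h replicate 2. Of the 77 genes higher in UACC62R, 71 had a positive log2 fold change in UACC62P (median 0.54), 51 were called higher there and none lower. The 51 are 66.2% of the UACC62R list and 29.7% of the UACC62P list. Of the 58 lower genes, 53 had a negative log2 fold change in UACC62P (median -0.59), 34 were called lower and none higher, which is 58.6% of the UACC62R list and 25% of the UACC62P list. In the fit of 16 libraries, the 3 higher and 2 lower genes of UACC62R were all called the same way in UACC62P, and with the block 209 higher and 108 lower genes were called in both lines. In UACC62P, MT1X had a log2 fold change of 4.30 ± 0.20, SLC30A1 2.28 ± 0.17, HSPA1A 2.86 ± 0.34, DNAJC3 -1.15 ± 0.12, CHPF2 -1.20 ± 0.09, MOGS -1.07 ± 0.09 and SLC39A10 -1.79 ± 0.16.

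The difference of the responses, UACC62R minus UACC62P, was tested as an interaction and was called for MT2A alone, with no gene higher and 1 lower of 20280 (0% and 0.00493%), while 951 genes had an unadjusted p under 0.05. MT2A had 2631 and 2677 CPM at 6 h, against 954.3 and 942.2 CPM at 0 h, in UACC62R. In UACC62P it had 895.4 and 1098 CPM at 6 h, against 124 and 106 CPM at 0 h. The rise was larger in UACC62P from a lower start, and the response of UACC62R was smaller by 1.63 ± 0.14 on the log2 scale (adjusted p = 0.000286, and 0.00339 at most without any 1 of the 8 libraries compared). In the fit of 16 libraries no difference was called and MT2A had an adjusted p of 1. UACC62R ended higher all the same, its untreated libraries being close to the treated ones of UACC62P.

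With the replicate block, 23 genes had a larger and 20 a smaller response in UACC62R (0.113% and 0.0986%), and DESeq2 gave 13 and 10. The block called the difference for 10 of the 135 genes, a count from which nothing is read because the same libraries chose the genes. GPAM, at 30.6 and 49 CPM at 6 h against 77.8 and 93.4 CPM at 0 h in UACC62R, had a log2 fold change of 0.07 ± 0.22 in UACC62P (difference -1.18 ± 0.30, adjusted p = 0.0205 with the block and 0.516 without it). ENTREP1 rose by 1.89 ± 0.21 in UACC62P (difference 1.63 ± 0.36, adjusted p = 0.0318 with the block and 0.391 without it). UACC62P had 8.14 and 7.96 CPM at 0 h and 21.8 and 38.2 CPM at 6 h. The larger response of UACC62R came from a lower start, 0.99 and 0.88 CPM, to a lower level at 6 h, 10.7 and 10.9 CPM. MITF, the master regulator of melanocytes, was at 0.03 ± 0.11 in UACC62R and at -0.65 ± 0.10 in UACC62P (difference 0.68 ± 0.15, adjusted p = 0.0205 with the block and 0.362 without it). HMOX1 had a difference of -1.63 ± 0.72 that did not pass (adjusted p = 1, and 0.51 with the block). Its 6 h libraries in UACC62P were far apart, at 128.3 and 761.1 CPM.

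**Figure D5:**
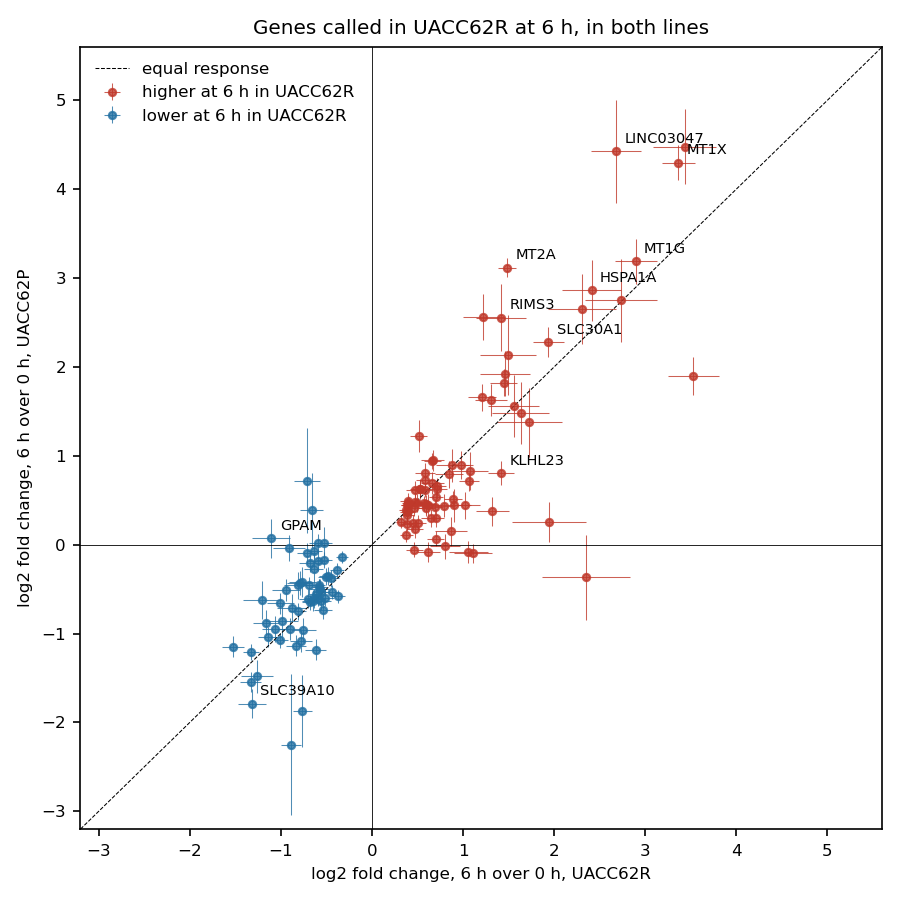
Log2 fold change at 6 h over 0 h in UACC62P (vertical) against that in UACC62R (horizontal) for the 135 genes called in UACC62R, with bars of 1 SE and a dashed line of equal response. Most points lie in the quadrants where both lines moved the same way (71 of 77 higher and 53 of 58 lower genes), and MT2A stands above the line at 3.12 in UACC62P and 1.48 in UACC62R.

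Promoter letters were compared over the 97 called genes with a RefSeq entry (54 higher, 43 lower) and all 12577 tested genes with one. Capitals in the runs shown above mark the same motifs. The metal response core was present in 22 of 54 higher promoters (40.7%) and 13 of 43 lower ones (30.2%), against 32.3% of all, and 2 or more copies in 18.5% and 4.65%, against 9.27%. The heat shock element, in its strict form, was found in 3 of 54 higher promoters (5.56%), those of HSPA8, ABHD3 and SERPINH1, in none of the lower ones, and in 0.334% of all. HSPA1A and HSPA1B hold no match in this window, which says only that these exact letters are not in it. The CArG box bound by SRF occurred in none of the higher and 1 of the lower promoters (2.33%), against 1.08% of all. The antioxidant element TGACNNNGC occurred in 9.26% of higher and 11.6% of lower promoters, against 12.3% of all, and the TEAD site GGAATG in 7.41% and 16.3%, against 9.63%. Higher promoters had a median GC content of 68.8%, lower ones 66% and all 64.4%, and the part of base composition in these shares was not tested.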

How the data were processed

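The mRNA of the melanoma lines UACC62R and UACC62P was sequenced from a stranded library kit in single-end 50-base reads, per the labels' protocols. The authors deposited raw read counts per gene for each of the 16 libraries (63677 Ensembl IDs, 52181 of which matched a symbol). The 5 summary lines of each deposited count file (not aligned 6.12 to 17.8%, aligned to several places 18.6 to 22.0%) were kept out of library sizes and tests. HTSeq 0.6.1, HISAT2 2.1.0, Trimmomatic 0.33, FastQC 0.11.5, bcl2fastq 2.19.0 and the build hg19 are named by the submitters' processing notes. The annotation release and strand setting used for counting were not given in the sources used here. Values of overlapping genes are therefore uncertain.

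From these counts, edgeR 4.0.16 (with limma 3.58.1 in R 4.3.3) fitted 15 libraries with 1 coefficient per group, TMM scaling and filterByExpr, and its quasi-likelihood F test was adjusted by Benjamini-Hochberg over 20280 genes at 0.05, which is the adjusted p given throughout. Standard errors are the log2 fold change over the square root of F. The script was tested on simulated data. Groups hold 2 libraries each, so the precision rests on the shared spread. No label says whether replicate numbers pair the libraries. After subtraction of the group means, same-numbered libraries correlated at 0.649 to 0.718 in the 6 pairs of UACC62R groups and at 0.174 to 0.718 in all 21 pairs (8273 genes), so the numbers were taken as pairing from the data, and the fit with the replicate number as a block is given beside comparisons and lists whose counts it changed. DESeq2 1.42.0 was an alternative. Other alternatives were the fit of 16 libraries, the 8 UACC62R libraries, the 4 libraries compared, RLE factors, library size alone, no filter, a CPM of 1 in 2 libraries, and each library left out in turn.

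Named genes were the 15 called genes with the largest change each way whose mean log2 CPM reached 2 and whose groups did not overlap, 5 each way in the other comparisons, up to 4 called members of each list or its member of smallest p, and 20 genes always given. Unnamed clones, pseudogenes and antisense RNAs were passed over. The members and the 38 gene lists were chosen with earlier results of these data known. Promoter sequences are from RefSeq (GRCh38.p14). Protein features of the called genes were not analysed here.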

Additional observations from a re-analysis of the deposited data

Results flagged for a closer look

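The response of MT2A, a metallothionein, differed between the lines in a test of the difference itself. The log2 fold change at 6 h over 0 h was 1.48 in UACC62R and 3.12 in UACC62P, a difference of -1.633 ± 0.14 (edgeR's interaction test, adjusted p = 0.000286 over 20280 genes). In UACC62R, MT2A had 2631 and 2677 CPM at 6 h, against 954.3 and 942.2 CPM at 0 h, and in UACC62P 895.4 and 1098 CPM at 6 h, against 124 and 106 CPM at 0 h. It was the 1 gene for which this difference passed. In the fit of 16 libraries it did not pass (-1.64, adjusted p = 1).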

How the results depend on the processing

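Counts are given as higher and lower genes. For UACC62R at 6 h against 0 h (77 and 58), the 16-library fit gave 3 and 2, the replicate block 352 and 214, no filter 272 and 179, DESeq2 173 and 120, the 8 UACC62R libraries 43 and 38, those with the block 789 and 572, and the 4 libraries alone 31 and 24. Leaving out each library gave 31 to 37 and 25 to 35. RLE factors gave 79 and 60, library size alone 69 and 65, and the CPM filter 77 and 63. For the response of UACC62R minus that of UACC62P (0 and 1), the 16-library fit gave 0 and 0, the replicate block 23 and 20, no filter 54 and 44, DESeq2 13 and 10, and leaving out each library 0 to 1 and 1 to 3. For UACC62R at 6 h against 2 h (0 and 2), the 16-library fit and the 8 UACC62R libraries each gave 0 and 0, the replicate block 77 and 71, library size alone 1 and 4, no filter 104 and 88, DESeq2 31 and 30, the 8 libraries with the block 286 and 329, and leaving out each library 0 to 2 and 0 to 1. For UACC62R at 24 h against 6 h (1051 and 1499), the 16-library fit gave 62 and 96, the replicate block 2016 and 2475, the 8 libraries with the block 2597 and 3136, and leaving out each library 363 to 900 and 601 to 1385. For UACC62P at 6 h against 0 h (172 and 136), alternatives chosen after seeing the data gave 7 and 3 with 16 libraries, 739 and 676 with the replicate block, 468 and 421 with no filter, 319 and 334 by DESeq2, and 36 to 110 and 21 to 95 without each library. The common dispersion, edgeR's estimate of the spread over all genes, was 0.00985 in the fit of 15 libraries and 0.0622 in that of 16. The cause of the changes in these counts was not tested, beyond the smaller number of libraries in some fits. The replicate block kept all genes called without it in these 5 comparisons. No named gene's called change reversed in the settings run. Of the 42 named genes called at 6 h against 0 h, 38 lost their call in the 16-library fit and 14 or 15 without a single library, while MT1X, MT1G, SGSH and MOGS kept theirs in all 14 alternatives. Depth limits genes near 1 CPM, such as ANKRD1.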
